A study of Mus musculus with 92 samples.

Results

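This report describes 5 mouse genes of meiotic cohesin and its germline CTCF paralogue, Stag3, Rec8, Smc1b, Rad21l and Ctcfl, out of 21887 protein-coding genes in the RefSeq table of GRCm38.p6. They were chosen by name. For each gene, the peaks of 30 deposited lists were collected in a window made of the gene body and 10 kb to each side. The lists come from chromatin immunoprecipitation followed by sequencing (ChIP-seq), which locates a protein on the genome, and a peak is a stretch in which the authors' peak caller saw a local excess of reads. The study concerns cohesin that carries STAG3 in mitotic mouse germline cells, and the 30 lists analysed here belong to a series of 92 samples.

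In the wild type, 3 lists of STAG3, 3 of STAG2 and 2 of STAG1 came from germline stem cells (GSC), which renew themselves as spermatogonia in culture. The other 10 STAG2 and 8 STAG1 lists came from wild-type ESC (embryonic stem cells), EpiLC (cells like those of the epiblast) and cells resembling primordial germ cells, named d2PGCLC and d4c7PGCLC in the labels. CTCF had 1 list in each of 4 mutant GSC genotypes, Stag1Stag2dKO (Stag3-only), Stag1Stag3dKO (Stag2-only), Stag2Stag3dKO (Stag1-only) and Stag3 KO, so no wild-type CTCF list was analysed here. All GSC, mutant and wild-type, carried the reporters Acrosin-EGFP and beta-Actin-EGFP (AAG) and were sorted as AAG-positive. The other cell types came from the line BDF1-2-1, which carries Blimp1-mVenus and Stella-ECFP (BVSC), and both PGCLC stages were sorted for Blimp1-mVenus. Cell line and GSC identity therefore cannot be told apart. Peak lists hold no expression, so the labelled cell types were not checked against markers.

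Cohesin is a ring-shaped complex that extrudes loops of chromatin and keeps sister chromatids paired until division. Each ring has a pair of SMC proteins, a kleisin that closes it and a STAG subunit. In meiosis, SMC1B can take the place of SMC1A, the kleisins REC8 and RAD21L that of RAD21, and STAG3 that of STAG1 and STAG2. CTCFL, also known as BORIS, is a paralogue of the insulator protein CTCF that is made in male germ cells. CTCF marks many of the places where cohesin is found on chromosomes.

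The promoters of Stag3, Rec8 and Smc1b are shown because peaks of STAG proteins covered all or part of them. Each sequence runs 5′ to 3′ from 250 bases before to 50 bases after the RefSeq start (GRCm38.p6). The positions are chr5:138280259-138280558 on the plus strand for Stag3, chr14:55617916-55618215 on the plus strand for Rec8 and chr15:85131908-85132207 on the minus strand for Smc1b. Capitals mark matches to the E2F site GCGGGA and to the E-box CACGTG, searched on both strands. E2F factors act in the cell cycle, and a complex with E2F6 is known to bind and silence germline genes in mouse cells.
Stag3: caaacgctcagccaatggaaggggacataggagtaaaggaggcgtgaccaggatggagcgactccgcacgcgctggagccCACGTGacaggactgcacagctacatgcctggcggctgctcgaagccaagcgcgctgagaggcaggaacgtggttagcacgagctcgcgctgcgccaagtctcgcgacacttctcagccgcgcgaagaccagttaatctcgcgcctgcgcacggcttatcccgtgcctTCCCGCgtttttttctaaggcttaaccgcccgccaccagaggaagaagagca
Rec8: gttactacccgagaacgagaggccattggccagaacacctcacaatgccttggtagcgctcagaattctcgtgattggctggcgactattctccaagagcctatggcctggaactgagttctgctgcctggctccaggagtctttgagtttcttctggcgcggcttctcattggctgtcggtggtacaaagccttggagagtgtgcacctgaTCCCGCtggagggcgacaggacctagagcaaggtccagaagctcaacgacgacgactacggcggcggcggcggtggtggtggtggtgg
Smc1b: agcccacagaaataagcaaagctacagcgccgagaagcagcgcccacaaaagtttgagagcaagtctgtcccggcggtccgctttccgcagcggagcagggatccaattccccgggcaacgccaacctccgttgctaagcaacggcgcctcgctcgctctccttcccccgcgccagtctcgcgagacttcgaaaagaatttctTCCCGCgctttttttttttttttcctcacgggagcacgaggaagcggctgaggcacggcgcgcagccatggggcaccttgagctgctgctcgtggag
All of them hold 1 match to the E2F site, read as TCCCGC on the printed strand, and the Stag3 promoter also holds 1 E-box. The RefSeq promoter window of Rad21l, which no peak covered, holds 0 E2F sites, and the Ctcfl promoter was not used here. The Rad21l start used for it, chr2:151668533, lies inside the annotated gene. On the minus strand the 5′ end of that gene is chr2:151670622, which a site called in all 3 STAG3 lists covered. Sequence at that end was not searched. The marked matches do not overlap each other. Of 32851 RefSeq promoters of the same length, 6562 (20%) hold the E2F site and 7.15% hold the E-box. The CTCF core consensus was in none of these 3 promoters and in 0.557% of all promoters. A match is a stretch of letters, not a bound site.

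In all, 24 merged sites lay in the 5 windows, counting overlapping peaks of any lists as 1 site. Ctcfl had peaks in all 30 lists, with 92 peaks in 6 sites. Smc1b had 55 peaks in 7 sites, Stag3 had 37 in 6 sites and Rec8 had 32 in 3 sites. Rad21l had 19 peaks in 2 sites, the fewest, and was the gene without a CTCF peak. The windows differ in size, from 27.4 kb for Rec8 to 87.3 kb for Smc1b, so these numbers are not levels per length. Of the 24 sites, 4 rested on a single list.

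**Figure D1:**
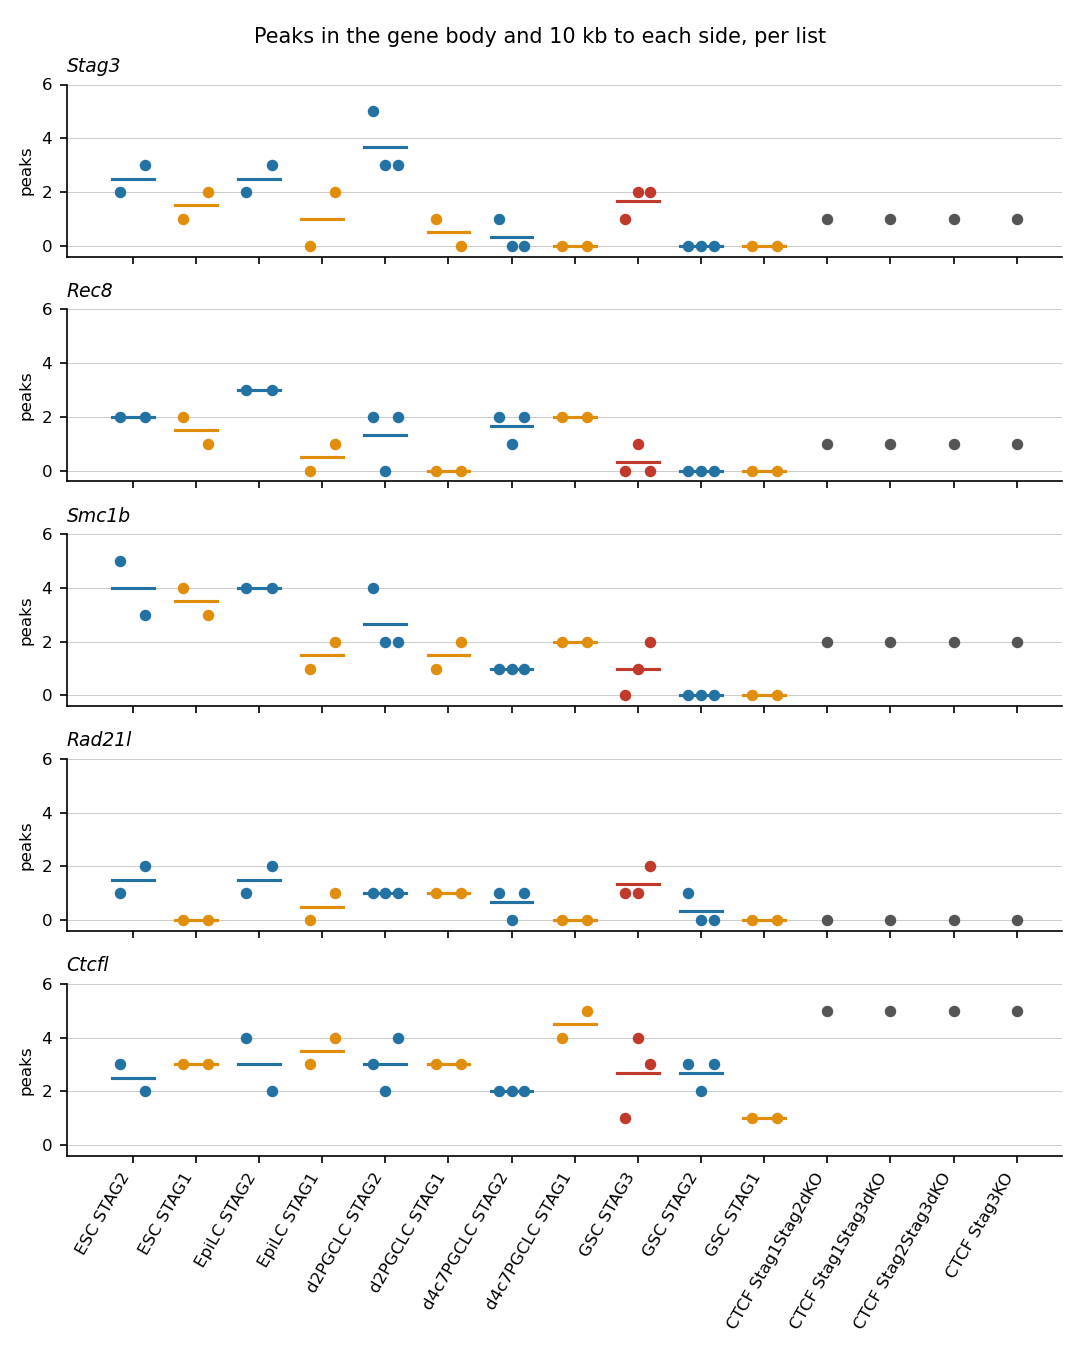
Number of peaks in each gene's window (vertical axis) in each list (points), by cell type and protein, with horizontal lines at the group means; CTCF lists are labelled by GSC genotype and have no replicates. Ctcfl has peaks in every list, the other genes have none in the STAG1 lists of GSC, and CTCF numbers are the same in all 4 genotypes.

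List length bears on every count below. The STAG lists held between 9641 and 84904 peaks, and the CTCF lists between 39639 and 43877. The GSC lists of STAG2 and STAG1 were short, with 13698 to 25979 peaks for STAG2 and 9641 and 10778 for STAG1. Among the STAG3 lists, replicate 1 held 12832 peaks, and the other two held 38631 and 39681. The sum of peaks over the 5 windows lay between 1, in each GSC STAG1 list, and 15, in d2PGCLC STAG2 replicate 1, whose list held 73250 peaks. The depth behind a list is unknown, so the absence of a call is not the absence of the protein.

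**Figure D2:**
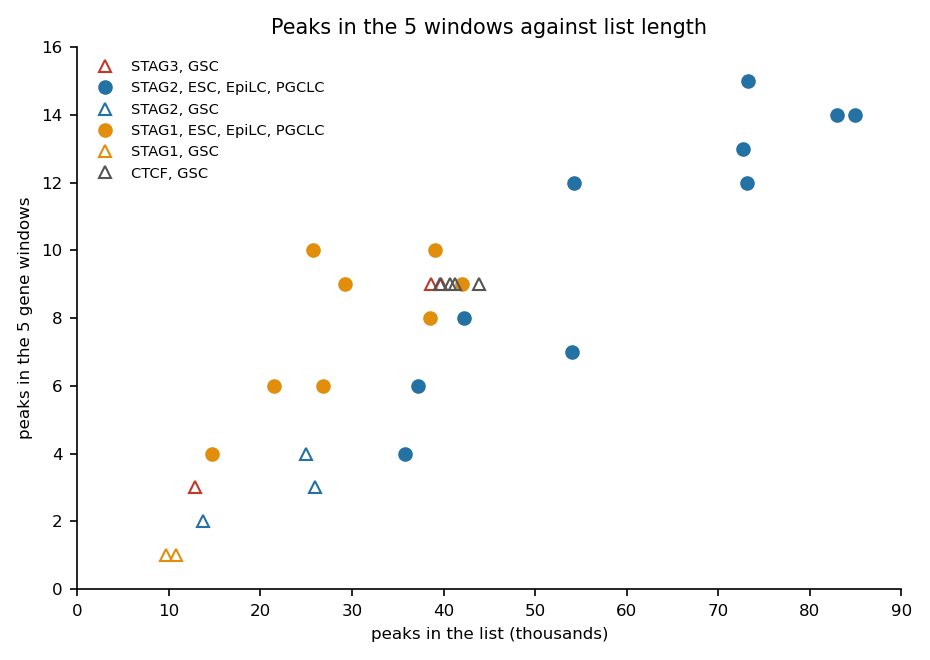
Peaks in the 5 windows together (vertical axis) against the number of peaks in the whole list (horizontal axis, in units of 1000 peaks), 1 point a list; triangles are GSC. Short lists hold few peaks of the 5 genes: both GSC STAG1 lists hold 1, and the 4 CTCF lists all hold 9.

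Around Stag3, the STAG subunit gene of meiotic cohesin (chr5:138272514-138312397, plus strand), STAG3 itself had peaks in all GSC lists while STAG2 and STAG1 had none there. The 3 STAG3 lists held 1, 2 and 2 peaks, against 0 in all 3 GSC STAG2 lists and both GSC STAG1 lists. The STAG3 lists therefore lay above all others in GSC. STAG2 had 2 and 3 peaks in ESC, 2 and 3 in EpiLC, 5, 3 and 3 in d2PGCLC and 1, 0 and 0 in d4c7PGCLC. STAG1 had 1 and 2 peaks in ESC, 0 and 2 in EpiLC, 1 and 0 in d2PGCLC and none in d4c7PGCLC. By group means, STAG2 was ordered d2PGCLC (3.67 ± 1.15, SD, n = 3), ESC and EpiLC (2.5 ± 0.707 each, SD, n = 2), d4c7PGCLC (0.333 ± 0.577, SD, n = 3) and GSC (0). The d2PGCLC, ESC and EpiLC lists overlapped in their numbers, as did those of d4c7PGCLC and GSC.

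The peaks around Stag3 fell in different places in different cells. At the start of Stag3, chr5:138279786-138280629, STAG3 had a fold enrichment of 5.72 in replicate 2 and 7.04 in replicate 3, and no peak in replicate 1. Fold enrichment is the authors' value for a peak over its local background, and it is given here only as a property of that peak within its list. The site also covers the start of Gpc2, a cell-surface proteoglycan gene annotated within the span of Stag3, below its RefSeq start. STAG2 had peaks there in 1 ESC list and 2 d2PGCLC lists, with fold enrichments between 3.55 and 5.28. A second STAG3 site, chr5:138263523-138264287, lay 8227 bp below the gene and 16222 bp from its RefSeq start, over Map11 and the promoter of the long non-coding RNA 6330418K02Rik. All 3 STAG3 lists had it, with fold enrichments of 5.11, 4.8 and 7.63, and 2 d2PGCLC STAG2 lists did. This site, outside the Stag3 gene, is what put STAG3 replicate 1 above 0.

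Inside Stag3, the 2 main sites of STAG2 and STAG1 had no GSC peak of any STAG protein. The first, chr5:138283636-138284059, lies 3127 bp from the RefSeq start and had no CTCF peak. It was called in all STAG2 lists of ESC, EpiLC and d2PGCLC, with fold enrichments between 5.37 and 16.2, and in 3 STAG1 lists. The second, chr5:138287815-138288465, was a CTCF site in all 4 genotypes, with CTCF fold enrichments of 28.3 in Stag1Stag2dKO, 27.6 in Stag1Stag3dKO, 26.6 in Stag2Stag3dKO and 25.5 in Stag3 KO. STAG2 had it in 8 lists, with values up to 39.8 in EpiLC replicate 2, and STAG1 in both ESC lists and 1 EpiLC list. The last stage at which a STAG peak was called there was d4c7PGCLC, in STAG2 replicate 1 with a fold enrichment of 4.17.

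Around Rec8, a kleisin gene (chr14:55618002-55625395, plus strand), the start and a neighbouring CTCF site carried most peaks. STAG2 had 2 and 2 peaks in the window in ESC, 3 and 3 in EpiLC, 2, 0 and 2 in d2PGCLC, 2, 1 and 2 in d4c7PGCLC and none in GSC. STAG1 had 2 and 1 peaks in ESC, 0 and 1 in EpiLC, none in d2PGCLC, 2 and 2 in d4c7PGCLC and none in GSC. For STAG1, the numbers of the PGCLC stages thus did not overlap, with 2 lists each. The d2PGCLC STAG1 lists were shorter, with 21438 and 26820 peaks against 38491 and 42013 in d4c7PGCLC. At equal list length no STAG list had a Rec8 peak, and the share of all genes with this pattern was not counted.

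The Rec8 start, chr14:55617736-55618482, had no CTCF peak in any genotype. STAG2 was called there in 9 of 13 lists, with fold enrichments of 13.7 and 14.6 in ESC and 8.08 and 12.2 in EpiLC. In d4c7PGCLC, the start was called in all 3 STAG2 lists, at 5.82, 6.42 and 5.51, and in both STAG1 lists, at 7.28 and 5.64. In GSC the only peak was that of STAG3 replicate 2, with a fold enrichment of 5.95. The CTCF site of the window, chr14:55629185-55629791, lies 3790 bp beyond Rec8 inside Ipo4, a nuclear import receptor gene. CTCF was called there in all 4 genotypes, with values between 28.6 and 29.1, and STAG2 in 8 lists and STAG1 in 5 lists, none of them from GSC. The remaining site, chr14:55610062-55610486, beside the interferon response gene Irf9, was called in both EpiLC STAG2 lists and in no other list.

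Around Smc1b, the meiotic SMC gene (chr15:85064689-85131957, minus strand), STAG2 and STAG1 had peaks in every list of ESC, EpiLC, d2PGCLC and d4c7PGCLC and none in GSC. STAG2 had 5 and 3 peaks in ESC, 4 and 4 in EpiLC, 4, 2 and 2 in d2PGCLC and 1, 1 and 1 in d4c7PGCLC. STAG1 had 4 and 3 in ESC, 1 and 2 in EpiLC, 1 and 2 in d2PGCLC and 2 and 2 in d4c7PGCLC. STAG3 had 0, 1 and 2 peaks in its GSC lists. The numbers of STAG2 in d4c7PGCLC lay below those of all its earlier stages, and the ESC, EpiLC and d2PGCLC numbers overlapped. How many of all genes share this order, or the lack of STAG2 and STAG1 peaks in GSC, was not counted. At equal list length the order was lost: STAG2 had 0 peaks in every ESC, EpiLC and d4c7PGCLC list and 0, 1 and 1 in d2PGCLC.

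The site shared by all 18 of those STAG2 and STAG1 lists was a CTCF site in the body of Smc1b, chr15:85070349-85071080, 60877 bp from the start. Its fold enrichment reached 47.2 for STAG2, in EpiLC replicate 2, and 25.8 for STAG1, in ESC replicate 1. CTCF had 18.5 in Stag1Stag2dKO, 15.1 in Stag1Stag3dKO, 20.3 in Stag2Stag3dKO and 16.1 in Stag3 KO. No STAG protein had a GSC peak there. A site without a CTCF peak in mutant GSC, the only cells with CTCF lists here, was chr15:85098205-85098722. It was called in 7 STAG2 lists and 4 STAG1 lists of ESC, EpiLC and d2PGCLC and in none of d4c7PGCLC or GSC. Another, chr15:85078840-85079102, was called in 4 STAG2 lists, both of EpiLC among them. All of these sites also lie within Fam118a as the table annotates it, since that gene spans most of Smc1b.

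The second CTCF site of Smc1b, chr15:85111953-85112551, was the weakest CTCF site of the 5 windows. CTCF fold enrichments there were 7.03 in Stag1Stag2dKO, 4.61 in Stag1Stag3dKO, 3.74 in Stag2Stag3dKO and 7.42 in Stag3 KO. Each ranked low in its list, above 21.4%, 4.27%, 1.4% and 21.3% of the list's peaks in the same order. With 1 pooled list a genotype, these values have no replicate check. Beside the start of Smc1b, over its promoter and that of its neighbour Ribc2, a gene of ciliary microtubules, lay chr15:85131964-85132275, where STAG3 had fold enrichments of 8.46 in replicate 2 and 6.06 in replicate 3. STAG2 had a peak there in ESC replicate 1, at 4.95, and STAG1 and CTCF had none.

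Around Rad21l, the other meiotic kleisin gene (chr2:151644366-151670622, minus strand), no CTCF peak was called in any genotype, and STAG proteins had 2 sites. The first, chr2:151670026-151671012, covers the upper end of the gene, its 5′ end on the minus strand, 1493 bp from the RefSeq start inside the gene. All 3 STAG3 lists had it, with fold enrichments of 6.07 in replicate 1, 6.05 in replicate 2 and 5.67 and 5.48 for 2 separate peaks in replicate 3. In GSC, STAG2 replicate 1 also had it, at 4.97, while the other two STAG2 lists and both STAG1 lists did not. The remaining calls were 1 STAG2 list each of ESC and EpiLC.

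The second Rad21l site, chr2:151676139-151676684, lies 5517 bp above the gene and was called in no GSC list. STAG2 had it in all 7 lists of ESC, EpiLC and d2PGCLC and in 2 of 3 lists of d4c7PGCLC. The STAG2 fold enrichments in d2PGCLC were 28.6, 14.9 and 16.8, above 82.7%, 63.1% and 68.2% of the peaks of their lists. The STAG1 values in d2PGCLC were 7.18 and 6.84, above 46.7% and 41.9% of the peaks of theirs. These values do not compare amounts of protein between lists. Outside d2PGCLC, STAG1 was called there in EpiLC replicate 2 only. Over the whole window, STAG2 had 1 and 2 peaks in ESC, 1 and 2 in EpiLC, 1 in each d2PGCLC list, 1, 0 and 1 in d4c7PGCLC and 1, 0 and 0 in GSC. STAG1 had none in ESC, d4c7PGCLC and GSC, 0 and 1 in EpiLC and 1 in each d2PGCLC list.

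**Figure D3:**
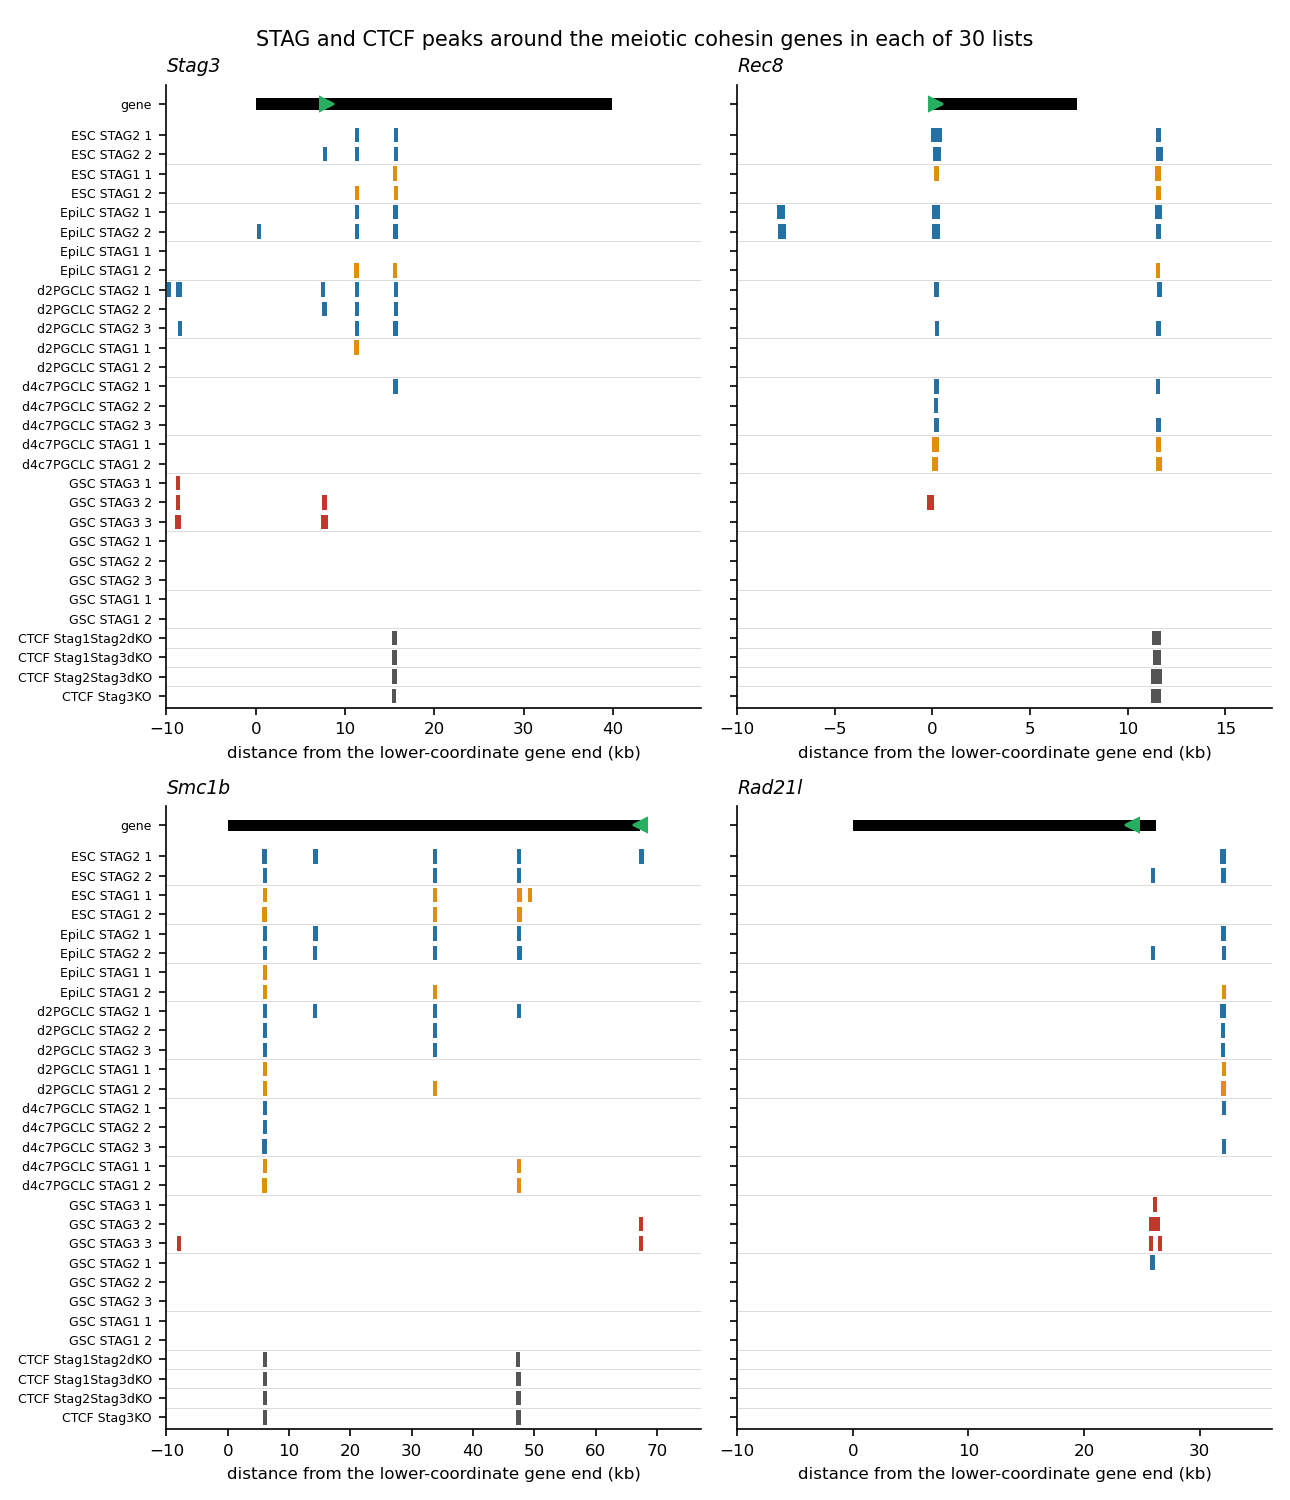
Peaks around Stag3, Rec8, Smc1b and Rad21l, 1 line a list, with distance from the lower-coordinate gene end in kb on the horizontal axis; black bars are genes, green triangles RefSeq starts, and peaks narrower than 0.8% of a window are drawn at that width. None of the 13 STAG3 peaks (red) lies on a CTCF site (grey) of the mutant GSC lists. Some are at the start or an end of the gene shown. Those 8227 bp below Stag3 and 7861 bp below Smc1b are not, but the site below Stag3 overlaps the promoter of its neighbour 6330418K02Rik.

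Ctcfl (chr2:173093609-173119525) had another layout, with 5 CTCF sites among its 6 sites. All 6 also lie within Gm40011, which the table annotates across the whole of Ctcfl. Each of the 5 was called in all 4 genotypes, so CTCF had 5 peaks in every list. STAG2 had 3 and 2 peaks in ESC, 4 and 2 in EpiLC, 3, 2 and 4 in d2PGCLC, 2, 2 and 2 in d4c7PGCLC and 3, 2 and 3 in GSC. STAG1 had 3 and 3 in ESC, 3 and 4 in EpiLC, 3 and 3 in d2PGCLC, 4 and 5 in d4c7PGCLC and 1 and 1 in GSC. STAG3 had 1, 4 and 3 in GSC. The order of STAG1 by means was d4c7PGCLC (4.5 ± 0.707), EpiLC (3.5 ± 0.707), ESC and d2PGCLC (3 in every list) and GSC (1 in both lists), with SD over n = 2 each. EpiLC overlapped both of its neighbours in that order, and GSC, whose STAG1 lists were short, overlapped none. How many of all genes share this order was not counted.

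Site 1, chr2:173089381-173089985, lies 3624 bp below Ctcfl and was called in 29 of 30 lists, all but STAG3 replicate 1. Its STAG2 fold enrichments ran between 9.95 and 69.3, its STAG1 values between 6.01 and 27.4 and its CTCF values between 32.2 and 36.8. STAG3 had 11.7 in replicate 2 and 9 in replicate 3. In GSC it was the only place in the Ctcfl window with STAG1 peaks, at 6.01 and 6.23. Site 3, chr2:173107121-173108446, inside the gene, was called in all 13 STAG2 lists and in all 8 STAG1 lists outside GSC, and in neither GSC STAG1 list.

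Site 2, chr2:173097214-173097855, inside Ctcfl, had STAG1 and CTCF peaks but no STAG2 peak in any of the 13 STAG2 lists. STAG1 had it in all 8 lists outside GSC, with fold enrichments of 12.8 and 7.74 in ESC, 7.28 and 11.2 in EpiLC, 8.83 and 8.57 in d2PGCLC and 10 and 19.5 in d4c7PGCLC. These peaks were of middle to high rank, above between 49% and 83.2% of the peaks of their lists. CTCF had 28.7 in Stag1Stag2dKO, 26.7 in Stag1Stag3dKO, 30 in Stag2Stag3dKO and 27.4 in Stag3 KO. In GSC, STAG3 replicate 2 had a peak of 4.58, and STAG2 and STAG1 had none. Of 11808 merged sites with STAG1 in all 8 lists outside GSC, 4 had no STAG2 peak in any list, which is 0.0339%. Site 2 of Ctcfl was the only one of the 4 with a CTCF peak. The remaining 3 had no CTCF peak and lay nearest to C1qbp, Gm47655 and Wasf3. This pattern was picked out after its values were seen, so it has no test. In ESC, EpiLC and d2PGCLC every STAG2 list was longer than every STAG1 list of the same cells, while in d4c7PGCLC 2 of 3 STAG2 lists were shorter than both STAG1 lists.

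Sites 5 and 6 were strong or moderate CTCF sites with few STAG peaks. Site 5, chr2:173113755-173114411, had CTCF fold enrichments between 31.7 and 34.9, and was the single Ctcfl site called in all 3 STAG3 lists, at 6.39, 7.09 and 4.89. STAG2 had it in GSC replicates 1 and 3, at 4.97 and 5.93, and STAG1 in 1 list each of EpiLC and d4c7PGCLC. In the 10 STAG2 lists outside GSC it was not called. Site 6, chr2:173119293-173120024, covers the upper end of the gene, with CTCF between 9.76 and 12.3. STAG2 had it in 3 lists and STAG1 in both d4c7PGCLC lists, at 4.59 and 4.72, and STAG3 in none. Site 4, chr2:173109131-173109437, without a CTCF peak in the mutant GSC lists, was called in 3 STAG2 lists of EpiLC and d2PGCLC.

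**Figure D4:**
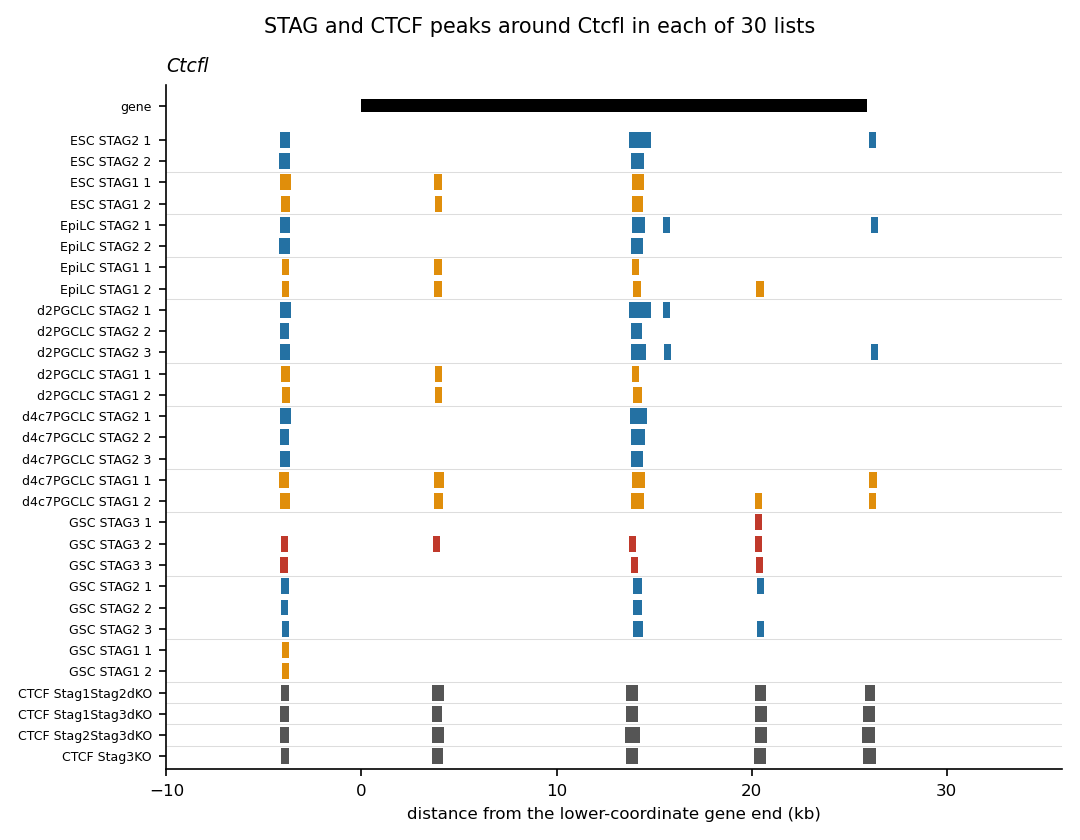
Peaks around Ctcfl in each list, with distance from the lower-coordinate gene end in kb on the horizontal axis and the gene as a black bar; the table gives no strand for this gene, and narrow peaks are drawn at 0.8% of the window. CTCF (grey) has 5 peaks in every genotype, and the second of them lines up with STAG1 peaks (orange) in 8 lists and with no STAG2 peak (blue).

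**Figure D5:**
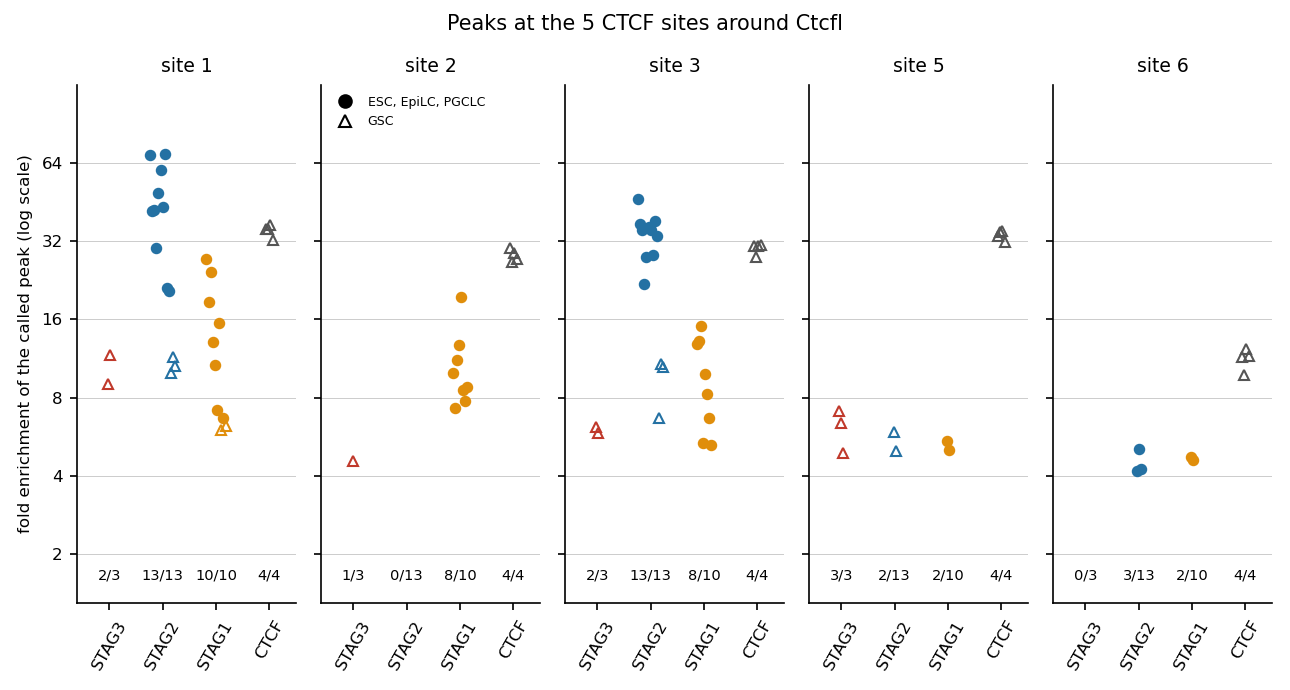
Fold enrichment of each called peak (log axis) at the 5 CTCF sites of Ctcfl, by protein, with circles for ESC, EpiLC and PGCLC lists and triangles for GSC lists; the fractions give lists with a peak of all lists. Values belong to their own list and do not compare amounts of protein between lists; at site 2, 8 of 10 STAG1 lists and 0 of 13 STAG2 lists have a peak.

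CTCF calls in these windows were the same in the 4 mutant genotypes. The 9 CTCF sites, 1 around Stag3, 1 around Rec8, 2 around Smc1b and 5 around Ctcfl, were called in Stag1Stag2dKO, Stag1Stag3dKO, Stag2Stag3dKO and Stag3 KO cells alike. Across the genome, 77.9% of the 46632 merged CTCF sites were called in all 4 genotypes, so that most sites share this pattern. Without a wild-type CTCF list or replicates, a difference in amount could not be tested.

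Of the 199 STAG peaks in the 5 windows, 120 (60.3%) lay on a CTCF site called in all 4 genotypes. For STAG3 this was 8 of 21 peaks, for STAG2 62 of 114 and for STAG1 50 of 64. All 8 of the STAG3 peaks at CTCF sites were around Ctcfl, where no STAG3 peak lay elsewhere. Around Stag3, Rec8, Smc1b and Rad21l, none of the 13 STAG3 peaks lay on a CTCF site. STAG1 lay on CTCF sites in 30 of 30 peaks around Ctcfl, 12 of 17 around Smc1b, 5 of 8 around Rec8, 3 of 6 around Stag3 and 0 of 3 around Rad21l. Every STAG3 peak came from GSC. Outside the Ctcfl window, no STAG1 peak and only 1 STAG2 peak did, so protein and cell type cannot be told apart there. The CTCF sites are those of mutant GSC, since the other cells had no CTCF list. The share over all peaks of each protein in the genome was not counted. Peaks of lists from the same cells share their sites, so these shares are descriptions.

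At most of these CTCF sites the STAG summits lay to one side of the CTCF summit. At the CTCF site of Stag3, all 11 STAG summits lay at higher coordinates, by a median of 122 bp (range 63.5 to 152), while the 4 CTCF summits lay within 4 bp of each other. At the site beyond Rec8, all 13 did, by a median of 81 bp, and at the weak site of Smc1b all 9 did, by 134 bp. At Ctcfl site 3, 22 of 23 did, by a median of 110 bp. At Ctcfl site 6 all 5 did, by a median of 107 bp, and at Ctcfl site 2, 8 of 9 did, with a median of 26.5 bp. The 4 CTCF summits were spread more widely at some sites, over 27 bp at Ctcfl site 2, 46 bp at the weak Smc1b site and 51 bp at Ctcfl site 6. At Ctcfl site 2 the median shift is thus no larger than that spread. The strong site of Smc1b and Ctcfl site 1 showed little shift, with medians of 7 bp and 17 bp. At Ctcfl site 5, the 3 STAG3 summits lay below the CTCF summit, with offsets between −74.5 and −40.5 bp, and the 2 STAG2 summits above it. All CTCF summits came from mutant GSC. At the Stag3 site, the site beyond Rec8 and the weak Smc1b site, every STAG summit came from wild-type ESC, EpiLC or PGCLC. Offsets there are between different cells, and the offset over all CTCF sites was not computed.

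The starts and ends of the genes, taken as the RefSeq promoter and a zone of 500 bp on both sides of each gene end, held the STAG3 peaks of 3 of the 5 genes in at least 2 of 3 lists. Rad21l had such a peak in 3 STAG3 lists, Stag3 and Smc1b in 2, Rec8 in 1 and Ctcfl in 0. Among all 21887 protein-coding genes, 50.6% had a STAG3 peak there in at least 2 lists, so 3 of 5 is near the share of any gene. In the same GSC, STAG2 had 1 such peak, at Rad21l, and STAG1 had none. The GSC lists of STAG2 held 13698 to 25979 peaks and those of STAG1 9641 and 10778, against 12832, 38631 and 39681 for STAG3. For STAG2 and STAG1 the share over all genes was not counted. This zone was chosen after the data were seen.

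The first comparison asked whether STAG2 and STAG1 differ in the number of peaks per gene window across the 5 cell types. Differences were averaged over the cell types, with labels exchanged only within a cell type in a two-sided exact permutation test, and p-values were adjusted over 18922 genes with a peak by the Benjamini-Hochberg method. STAG2 was higher around Stag3, with a mean of 1.8 peaks against 0.6 for STAG1 (difference 1.2, exact permutation p = 0.00667, adjusted p = 0.0171). It was also higher around Rad21l, with 1 against 0.3 (difference 0.7, exact permutation p = 0.0122, adjusted p = 0.0255). That call ended without ESC STAG2 replicate 2, EpiLC STAG1 replicate 1 or EpiLC STAG2 replicate 2 (0.6 each), or d4c7PGCLC STAG2 replicate 1 (0.667). Rec8 had 1.6 for STAG2 against 0.8 for STAG1 (exact permutation, adjusted p = 0.059), Smc1b had 2.33 against 1.7 (adjusted p = 0.168) and Ctcfl had 2.63 against 3 (adjusted p = 0.439), and these 3 did not pass. The 2 of 5 genes called stand beside 61.8% of all genes called higher for STAG2 and 0.0317% called lower. The median difference was 0.7 for the 5 genes and 1.03 for all genes. Cut to the 9641 peaks of highest fold enrichment in every list, none of the 5 genes was called, and the genes called across the genome split into 262 higher and 255 lower.

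In the first comparison Ctcfl was the single gene of the 5 with a lower mean for STAG2. At equal list length the signs of Ctcfl (difference 0.133) and Smc1b (−0.267) turned, and neither passed under either setting. With whole lists the direction for Ctcfl differed between cells. In d4c7PGCLC, STAG2 had 2 peaks in every list and STAG1 had 4 and 5. In GSC, STAG2 had 3, 2 and 3 peaks and STAG1 had 1 in both lists. Neither pair of groups overlapped. At equal list length this contrast was lost: d4c7PGCLC had 2, 2 and 2 for STAG2 and 1 and 2 for STAG1, and GSC had 2, 1 and 2 for STAG2 and 1 and 1 for STAG1. The difference between the cell types was not tested, and the share of all genes with such a contrast was not counted.

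The second comparison asked whether GSC differ from the other cell types in STAG2 and STAG1 peaks, averaging the differences of both proteins. GSC were lower around Smc1b, with a mean of 0 against 2.41 in the other cell types (difference −2.41, exact permutation p = 0.000311, adjusted p = 0.00222). The GSC lists, which were short, lay below all others there, and the share of all genes with this lack of overlap was not counted. GSC were also lower around Rec8, with 0 against 1.45 (exact permutation, adjusted p = 0.0134), and around Ctcfl, with 1.83 against 3.05 (difference −1.22, exact permutation, adjusted p = 0.0434). Stag3 had 0 in GSC against 1.48 (adjusted p = 0.0519, exact permutation) and Rad21l 0.167 against 0.737 (adjusted p = 0.113, exact permutation), which did not pass. For Rad21l the sign turned with the gene body alone or with 2 kb to each side (0.0667 in both). Across the genome 50.4% of 18922 genes were called lower in GSC and 0.106% higher. The 3 of 5 called is near that background, and the median difference was −1.45 for the 5 genes and −1.05 for all. With all lists cut to equal length, no call remained for the 5 genes, and across the genome 1318 genes were higher and 1450 lower. The Ctcfl call also ended when any of 14 lists was left out singly, both GSC STAG1 lists and GSC STAG2 replicate 2 among them, with differences between −1.3 and −1.05 over all lists left out.

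At equal length the genes differed in what was left. Ctcfl had between 1 and 3 peaks in each of the 26 STAG lists. How many of all genes keep a peak in every cut list was not counted. The cut to 9641 peaks keeps all of GSC STAG1 replicate 1 and most of replicate 2, which held 10778 peaks. The Ctcfl peaks kept there were of low rank, above 22.7% and 28.8% of the peaks of their lists. Smc1b had a peak in 7 lists, Stag3 and Rad21l in 1 each and Rec8 in none. The single Stag3 peak left was in STAG3 replicate 3, and the single Rad21l peak in STAG3 replicate 1. The latter list is short, with 12832 peaks, and the Rad21l peak ranked above 53.1% of them.

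The third comparison set STAG3 against STAG2 and STAG1 within GSC, the cells that have all of these lists. Stag3 had a mean of 1.67 peaks for STAG3 against 0 for STAG2 and STAG1 together, without overlap (exact permutation p = 0.0179, adjusted p = 0.164). This p is the smallest that 56 assignments allow. Without overlap, 10.9% of 17179 genes were higher for STAG3 and 0.169% lower. Those higher numbered 1881, and 7664 without STAG3 replicate 1, the short list of 12832 peaks. Rad21l had 1.33 against 0.2 (exact permutation, adjusted p = 0.272), Smc1b 1 against 0, Rec8 0.333 against 0 and Ctcfl 2.67 against 2, a difference that turned to −0.4 at equal list length, and the lists of these 4 overlapped. By adjusted p over all genes no gene passed, while 2632 had an unadjusted exact permutation p under the 0.05 threshold. Counting only the gene body, or 2 kb around it, ended the call for Stag3, since STAG3 replicate 1 then had no peak there. Peak names of the STAG3 lists point to another working directory than those of STAG2 and STAG1, so the antibody and a separate calling run cannot be told apart.

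The mitotic counterparts of the 5 genes, Stag1, Stag2, Rad21, Smc1a, Smc3 and Ctcf, were described in the same way. For STAG2 against STAG1, Rad21, the mitotic kleisin gene, was higher with 1.7 against 0.2 peaks (exact permutation, adjusted p = 0.0134), as was Stag2 with 1.9 against 0.9 (adjusted p = 0.0102), and the other four did not pass. In GSC against the other cell types, Smc3, the SMC gene of all cohesin rings, was lower with 0.833 against 3.01 (exact permutation, adjusted p = 0.0027), and Ctcf was lower with 0.833 against 2.38 (adjusted p = 0.0112). The 2 of 6 genes called higher for STAG2 stand beside 61.8% of all genes, and the 2 of 6 called lower in GSC beside 50.4%. Whether these calls hold at equal list length was not examined. In the third comparison none of the 6 had lists without overlap, and Smc1a had no peak to test. Stag2 itself had 0, 1 and 0 STAG3 peaks in GSC and 1 in every GSC list of STAG2 and STAG1.

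A list of 28 germline-restricted genes, 27 of which matched the table by symbol, gave similar shares. STAG2 was higher than STAG1 for 15 of 27 and lower for 0, with a median difference of 0.9. Among them were Sycp1 of the synaptonemal complex, with 2.13 against 0.4 (exact permutation, adjusted p = 0.0335), Stra8, the meiotic entry gene, with 3.4 against 2.2 (adjusted p = 0.0109), and Taf7l, a testis transcription factor gene, with 0.8 against 0 (adjusted p = 0.00429). In GSC, 10 of 27 were lower and 0 higher, with a median of −0.838, among them Dazl, a germ cell RNA-binding protein gene, with 0.167 against 1.75 (exact permutation, adjusted p = 0.0018), and Stra8 with 1.33 against 3.15 (adjusted p = 0.00362). None of the 26 tested had STAG3 lists apart from the STAG2 and STAG1 lists. These shares are near or below those of all genes given above, and the calls were not repeated for this list at equal list length.

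Genes whose peak numbers were most like those of a member over the 30 lists were found by the smallest summed absolute difference, leaving out neighbours. For Stag3 they were Rbm42 (summed difference of 12 peaks, Pearson r = 0.841), Tnks1bp1 (13) and Pak1ip1 (13). For Rec8 they were 4930558C23Rik and C1s1 (6 each) and Nlrp4c (7), and for Smc1b Ermap and Slc6a20a (11 each) and Eras (12). For Rad21l they were Clvs2 and Lrp3 (6 each) and Olig1 (7). Ctcfl had the least close matches, Wdr93 (18), Ctrb1 and Gm13283 (19 each), against its own total of 92 peaks. All lists share their lengths across genes, so such likeness is a description with no test.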

How the data were processed

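The 30 mouse ChIP-seq peak lists were used as deposited, and data of the series outside these lists were not analysed here. Per the submitters' processing notes, MACS2 was used, as were deepTools 3.5.0, bedtools 2.29.2, SAMtools 1.7, Bowtie2 2.3.4.1, cutadapt 1.9.1 and Trim Galore 0.4.1, and the builds named are mm10 and GRCm38.p3. For each peak the authors' lists give fold enrichment, a linear ratio over local background, and its significance as deposited on a −log10 scale, once for the p-value and once for the q-value. The deposited score, a whole number, was not used. The lowest −log10 q in any list was 2. STAG lists were called per library and CTCF lists on pooled replicates, per the peak names. The labels do not say whether replicates were separate cultures, and the p-values therefore cover the spread between lists alone, which may be technical.

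Peaks were counted in windows of the RefSeq gene (GRCm38.p6) and 10 kb to each side, with at least 1 bp shared. Exact permutation tests over lists, adjusted by the Benjamini-Hochberg method over all genes with a peak, had a threshold of 0.05. The first had 36000 assignments, the second 12870 and the third 56. The first and second were tested on simulated data. The third counted genes whose lists do not overlap. Peaks at CTCF sites shared at least 1 bp with a merged CTCF interval of all 4 genotypes. Python 3.11.15, numpy 2.4.6, pandas 2.3.3 and scipy 1.17.1 were used. Alternatives were other windows, −log10 q of at least 5, summits, lists of equal length, all genes tested, lists left out, a replicate block and, added after seeing the data, GSC lists left out.

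The 5 genes and the gene lists were chosen with earlier results of these data known. Genes named by rule were the 5 members, their 6 mitotic counterparts, genes whose body lies in a window and, for each member, the 3 genes with the smallest summed difference in peak number. Sites described by rule were those called in every list of a protein and cell type; other sites, and the germline-restricted genes named singly, were chosen after their values were seen. Depth is unknown, so no interval or limit was computed from it. Peak sequences were not used here.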

Additional observations from a re-analysis of the deposited data

Results flagged for a closer look

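The direction of STAG2 against STAG1 turned between cell types for 2 genes, with every list of one protein on the same side of every list of the other. Around Ctcfl, STAG2 minus STAG1 was 1.67 peaks in GSC (STAG2 3, 2 and 3, STAG1 1 and 1) and −2.5 peaks in d4c7PGCLC (STAG2 2, 2 and 2, STAG1 4 and 5). Around Smc1b it was 2.5 peaks in EpiLC (STAG2 4 and 4, STAG1 1 and 2) and −1 peak in d4c7PGCLC (STAG2 1, 1 and 1, STAG1 2 and 2). Whole lists for EpiLC had 84904 and 82994 peaks (STAG2) and 14720 and 25756 peaks (STAG1). Those for d4c7PGCLC had 53988, 35799 and 37236 peaks (STAG2) and 38491 and 42013 peaks (STAG1). At equal list length neither turn was seen. For Ctcfl, d4c7PGCLC then had 2, 2 and 2 peaks for STAG2 and 1 and 2 for STAG1, and GSC had 2, 1 and 2 for STAG2 and 1 and 1 for STAG1. For Smc1b, EpiLC had 0 and 0 for STAG2 and 0 and 1 for STAG1, and every d4c7PGCLC list had 0. The differences between cell types were not tested, and the share of all genes with such a turn was not counted.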

How the results depend on the processing

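No called difference of a member changed sign. Among those not called, 4 did: at equal list length Ctcfl (0.133) and Smc1b (−0.267) in STAG2 against STAG1 and Ctcfl for STAG3 in GSC (−0.4), and with narrower windows Rad21l in GSC against the other cell types (0.0667). With STAG lists of equal length all calls ended: the difference was 0 for Stag3 and Rad21l in STAG2 against STAG1, 0 for Rec8, −0.35 for Smc1b and −0.217 for Ctcfl in GSC against the other cell types, and 0.333 for Stag3 in STAG3 against STAG2 and STAG1. With the gene body and 2 kb to each side, and with the gene body only, calls ended for Rad21l in STAG2 against STAG1 (0.267 in both), Rec8 in GSC (−0.638 in both), Ctcfl in GSC (−1.22 and −0.942) and Stag3 for STAG3 in GSC (0.667 in both). With all protein-coding genes tested, Ctcfl in GSC stayed at −1.22 and missed the threshold (adjusted p = 0.0502, exact permutation). With −log10 q of at least 5, 3 differences passed that had not: Stag3 (−1.43) and Rad21l (−0.737) in GSC, and Rad21l for STAG3 (1.33). Leaving out the GSC lists, a choice made after seeing the data, left the calls for Stag3 (1.5) and Rad21l (0.792) in STAG2 against STAG1 in place. Over all genes, calls at equal length were 262 higher and 255 lower for STAG2 (11691 and 6 with whole lists), 1318 higher and 1450 lower in GSC (20 and 9546), and 499 lower for STAG3 (29). Gene bodies alone gave 5505 genes lower in GSC, and leaving out GSC gave 2 lower for STAG2. CTCF peaks in the windows numbered 36 over the 4 lists and 28 in gene bodies, and the share of STAG peaks at CTCF sites lay between 57.3% and 61% under its alternatives. The causes were not tested beyond what each setting removes.

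Leaving out 1 list at a time, STAG2 minus STAG1 for Rad21l lay between 0.6 and 0.8, and the call ended without ESC STAG2 replicate 2 (0.6), EpiLC STAG1 replicate 1 (0.6), EpiLC STAG2 replicate 2 (0.6) or d4c7PGCLC STAG2 replicate 1 (0.667). For Rec8 it lay between 0.7 and 0.933, and passed without ESC STAG1 replicate 1 (0.9) or d2PGCLC STAG2 replicate 2 (0.933). In GSC against the other cell types, Ctcfl lay between −1.3 and −1.05 and missed the threshold without any of 14 lists: ESC STAG1 replicates 1 and 2, ESC STAG2 replicate 1, EpiLC STAG1 replicate 2, EpiLC STAG2 replicate 1, both GSC STAG1 lists, GSC STAG2 replicate 2, both d2PGCLC STAG1 lists, d2PGCLC STAG2 replicates 1 and 3 and both d4c7PGCLC STAG1 lists. Stag3 lay between −1.6 and −1.32 and passed without EpiLC STAG1 replicate 1, d2PGCLC STAG1 replicate 2 or any d4c7PGCLC list. For STAG3 in GSC, Smc1b lay between 0.5 and 1.5 and stood apart without STAG3 replicate 1 (1.5), and Rad21l lay between 0.8 and 1.33 and stood apart without STAG2 replicate 1 (1.33). Over all genes, those higher for STAG3 numbered 7664 without STAG3 replicate 1 (1881 with it). Those lower numbered 60 without STAG1 replicate 1, 68 without STAG3 replicate 2 and 78 without STAG3 replicate 3 (29 with them), those higher in GSC between 8 and 39 without a GSC STAG2 list (20 with it), and those lower for STAG2 between 1 and 3 without any of 10 lists (6 with them).

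Lists share replicate numbers, but the labels do not tie a number to a shared batch, and deviations of same-numbered STAG2 and STAG1 lists did not go together (correlations over genes between −0.0652 and −0.0043). With the number as a replicate block, STAG2 minus STAG1 was 1.3 for Stag3 and 0.7 for Rad21l, GSC minus the other cell types was −1 for Ctcfl, and these 3 missed the threshold. Genes called higher for STAG2 numbered 3396 with the replicate block and 11691 without it, from 1024 against 36000 assignments. With it, 0 genes were lower for STAG2 and 10 higher in GSC.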
